A study of Sus scrofa with 30 samples.

Results

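TYROBP, LCP1 and PLEK are 3 genes of microglia and blood leukocytes, and they were followed in pig cerebral cortex after cardiac arrest. All probe sets whose only gene symbol in the platform's annotation was 1 of these genes were taken. That gave 7 of the 23999 probe sets on the array that were not controls: 1 for TYROBP, 5 for LCP1 and 1 for PLEK. Of the 7, 4 passed the filter on low values, which kept 16799 probe sets.

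The cortex came from Swedish triple breed pigs of both sexes, 12 to 14 weeks old, under pentobarbital. Ventricular fibrillation was induced electrically in them. Each of 10 groups held 3 arrays, labelled as biological replicates. In the MB groups, the arrest lasted 12 min and chest compressions 8 min, and the pigs were infused with 55 mL/kg/h of saline that carried methylene blue (7.5 mg/kg/h). The brain was taken 30, 60 or 180 min after spontaneous circulation returned (MB30, MB60 and MB180). The SAL groups had the same arrest, compressions and saline without methylene blue, at the same times (SAL30, SAL60 and SAL180). In both arms the infusion ran from 1 min after compressions began to 50 min after circulation returned, so it had ended before the 60 min samples. The CA groups were not resuscitated, and the brain was taken at once, which the labels call the control, or 5, 20 or 30 min after the arrest (CA0, CA5, CA20 and CA30). CA0 pigs had the anaesthesia and the induced fibrillation too, so no group was free of them. Methylene blue, a dye, blocks guanylate cyclase and the synthases that make nitric oxide.

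TYROBP, also called DAP12, is a small membrane adaptor. It pairs with receptors that have no signalling tail of their own, such as TREM2 on microglia, and its cytoplasmic ITAM motif recruits the kinase SYK once phosphorylated. LCP1, or L-plastin, bundles actin filaments in leukocytes. PLEK, or pleckstrin, is a major substrate of protein kinase C in platelets and is also made by leukocytes. In brain, microglia are the resident macrophages, and leukocytes and platelets lie mostly within vessels.

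Values are array intensities in arbitrary units, and changes are differences of log2(intensity + 16) ± SE, so folds of dim probe sets are understated. A call is an adjusted p below 0.05 from limma, with Benjamini-Hochberg adjustment over the 16799 probe sets of each comparison. In whole cortex, fewer cells of a type and less RNA per cell cannot be told apart.

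Genes of microglia were measurable in this cortex. Of 19 other microglia genes listed, 11 had a probe set and 9 passed the filter. They included P2RY12, the purinergic receptor of resting microglia (mean intensity 763), C1QC of complement (709), AIF1, which encodes the marker IBA1 (502), and CTSS, a lysosomal protease (496). The filter's limit was an intensity of 29.5. Of 7 neutrophil genes with a probe set 2 passed it, with S100A8 (27.9) below, as did 5 of 6 monocyte and macrophage genes, and the 1 B cell gene, CD79B (14.9), did not. Of 6 platelet genes 5 passed, between 33.9 for ITGB3 and 99.8 for GP9, and PPBP (5.4) did not.

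Depth cannot be given for arrays, and the number of arrays limits the precision. SAL30 replicate 1 stood apart: its median correlation with the other arrays was 0.933, against 0.944 for the next lowest. The log2 3'/5' signal ratio of 3 control transcripts, a measure of RNA integrity and labelling, spanned 0.713 to 1.35 on MB arrays, 0.985 to 2.60 on SAL arrays and 1.07 to 2.71 on CA arrays. It exceeded 2 on CA20 replicates 2 and 3, SAL60 replicate 2 and SAL180 replicate 3. For MB against SAL over the 3 times and for the members past the filter, it is said below where leaving out these 5 arrays, or putting the ratio in the fit, ended a call. Probe sets below the filter had neither check.

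Across the 10 groups TYROBP was the brightest of the 7 probe sets (Ssc.507.1.A1_at, mean 189). Its group means ran from 142 ± 7.28 in MB30 to 301 ± 173 in SAL30 (SD, n = 3 each). The order from low to high was MB30, CA30, MB60, MB180, CA5, SAL60, SAL180, CA20, CA0 and SAL30, taken on log2 means. The 3 MB groups were among the 4 lowest. None of the 9 gaps between neighbours in this order was larger than the bigger of their SDs.

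Untreated arrest gave no call for TYROBP. Its intensity was 184.9, 201.9 and 238.3 in CA0, 244.8, 152.8 and 152.9 in CA5, 224.4, 156.3 and 228.4 in CA20, and 176.0, 138.3 and 119.6 in CA30. All 3 CA30 arrays lay below all 3 CA0 arrays, and the other times overlapped CA0. The change in CA30 against CA0 was -0.49 ± 0.25 (limma, adjusted p = 0.985).

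Under methylene blue TYROBP was lower than under saline. The 9 MB arrays lay between 126.9 and 164.8 with a median of 149.6, and the 9 SAL arrays between 137.6 and 499.6 with a median of 206.9. The 12 CA arrays lay between 119.6 and 244.8, with a median of 180.4. Of the 9 SAL arrays, 8 were above every MB array, the exception being SAL60 replicate 3. Averaged over the 3 times, TYROBP fell by 0.52 ± 0.15 in MB against SAL (limma, adjusted p = 0.0112), a fold of 0.698. In that comparison 25.2% of all probe sets were called, and 1 of the 4 members' probe sets was, so the members' share is no more than the background.

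By time, TYROBP had 149.6, 135.1 and 142.4 in MB30, against 499.6, 219.2 and 184.9 in SAL30. It had 163.0, 145.7 and 126.9 in MB60, against 210.9, 253.5 and 137.6 in SAL60. It had 164.8, 157.7 and 155.4 in MB180, against 206.9, 198.5 and 189.8 in SAL180. The groups did not overlap at 30 and 180 min, and overlapped at 60 min. The difference was called at 30 min (-0.87 ± 0.25, limma, adjusted p = 0.0486, where 4.09% of probe sets were called). It was not called at 60 min (-0.39 ± 0.25, adjusted p = 0.438) or at 180 min (-0.29 ± 0.25, adjusted p = 0.581). The background share was 1.52% at 60 min and 1.9% at 180 min. The variation of the difference between times was itself not called (limma, moderated F test, adjusted p = 1, unadjusted 0.239). That test called 0% of probe sets, with 483 at an unadjusted p under 0.05.

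SAL30 replicate 1 held the highest TYROBP value of all 30 arrays. Without it the 30 min difference was -0.46 ± 0.22 (limma, adjusted p = 0.305). That call was kept without CA5 replicate 1, CA20 replicate 2, SAL30 replicate 2 or 3, SAL60 replicate 2 or 3, or SAL180 replicate 3. It was lost without each of the other 23 arrays, over an adjusted p of 0.0147 to 0.305 in the 30 refits. The difference over the 3 times was called in all 30 refits that left out 1 array, between -0.61 and -0.38 (adjusted p 0.00284 to 0.0310). It was -0.46 with the 3'/5' ratio in the fit (adjusted p = 0.106) and -0.33 without the 5 arrays named above (adjusted p = 0.0627).

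**Figure D1:**
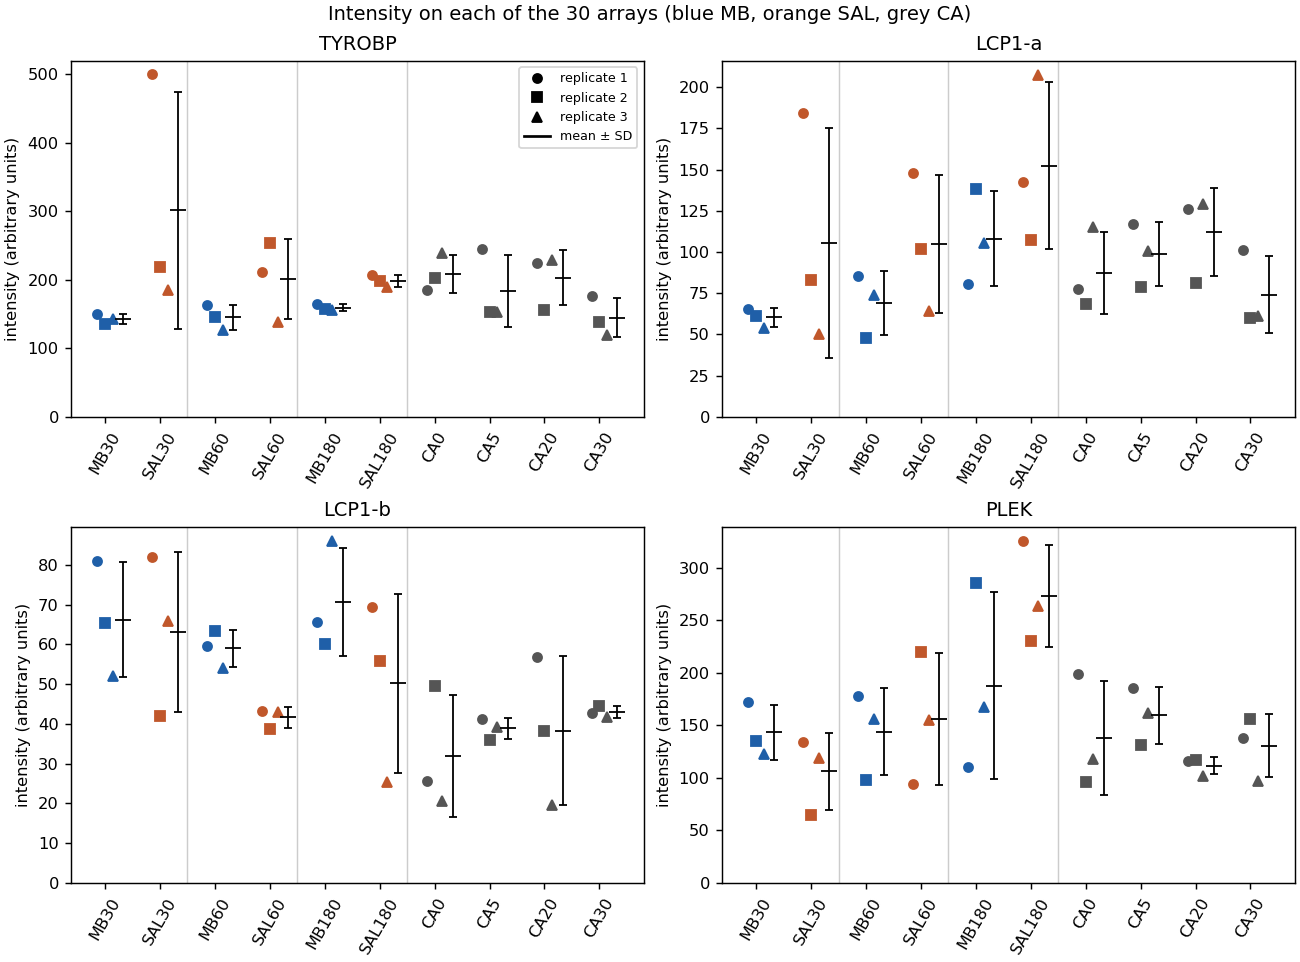
Intensity in arbitrary units (vertical axis, from 0) of the 4 probe sets past the filter on each of the 30 arrays, by group, with marker shapes for replicates 1 to 3 and black bars for the mean ± SD of 3 arrays. TYROBP was between 126.9 and 164.8 on the 9 MB arrays and at 499.6 on SAL30 replicate 1, and PLEK was at 230.1 to 325.4 on the 3 SAL180 arrays.

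LCP1 was read by 5 probe sets whose names come from 3 sequence clusters. They are called a to e here, from bright to dim: a is Ssc.9330.1.A1_at (mean 97.2), b is Ssc.23774.3.S1_at (50.3), c is Ssc.29951.1.S1_at (26.7), d is Ssc.23774.1.S1_at (11.4) and e is Ssc.23774.2.S1_at (8.70). Only a and b passed the filter. Intensities of different probe sets are not levels on 1 scale.

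LCP1-a was lowest in MB30 (60.3 ± 5.69) and highest in SAL180 (152 ± 50.7; SD, n = 3 each). It had 65.4, 61.4 and 54.2 in MB30, against 184.0, 82.9 and 50.1 in SAL30. It had 85.5, 48.0 and 73.7 in MB60, against 147.8, 101.9 and 64.2 in SAL60. It had 80.4, 138.3 and 105.7 in MB180, against 142.7, 107.2 and 207.3 in SAL180. The means were lower in MB at each time, and the groups overlapped at each time.

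Over the 3 times the LCP1-a difference was -0.47 ± 0.19 (limma, adjusted p = 0.063), which missed the threshold. The 95% interval of the difference was -0.85 to -0.09. It passed after quantile normalization (-0.61, adjusted p = 0.0174) and after median centring (-0.57, adjusted p = 0.0236). It also passed without SAL30 replicate 3, without SAL60 replicate 3 or without SAL180 replicate 2, and ranged from an adjusted p of 0.0153 to 0.158 over the 30 refits. In untreated arrest LCP1-a had 77.5, 68.5 and 115.4 in CA0, 117.0, 78.7 and 100.5 in CA5, 125.9, 81.3 and 128.8 in CA20, and 101.2, 60.1 and 61.3 in CA30. All of these groups overlapped.

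LCP1-b was higher under methylene blue than in CA0, and its means under saline were above CA0 too. It was lowest in CA0 (31.9 ± 15.4) and highest in MB180 (70.7 ± 13.6; SD, n = 3 each). It had 81.0, 65.4 and 52.1 in MB30, 59.6, 63.4 and 54.1 in MB60 and 65.8, 60.2 and 86.0 in MB180, against 25.6, 49.5 and 20.6 in CA0. Every MB array was above every CA0 array. It rose by 0.81 ± 0.26 in MB30 against CA0 (limma, adjusted p = 0.0458) and by 0.89 ± 0.26 in MB180 against CA0 (adjusted p = 0.0346). In MB60 against CA0 the change was 0.69 ± 0.26 (adjusted p = 0.0837). In these comparisons 12.2%, 9.41% and 12.5% of probe sets were called, for 30, 180 and 60 min in turn, and 1, 1 and 0 of the 4 members' probe sets. The 3 comparisons share the CA0 arrays. LCP1-a in the same comparisons was at -0.41 ± 0.32 in MB30, -0.28 ± 0.32 in MB60 and 0.27 ± 0.32 in MB180 (adjusted p = 0.431, 0.612 and 0.647), so at 180 min it had the sign of LCP1-b.

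The LCP1-b calls did not hold widely. With the 3'/5' ratio in the fit the change was 0.39 in MB30 against CA0 (limma, adjusted p = 0.451) and 0.57 in MB180 against CA0 (adjusted p = 0.201). After median centring it was 0.63 in MB30 and 0.72 in MB180 (limma, adjusted p = 0.0804 and 0.0531). The MB180 call was lost without CA0 replicate 1, CA0 replicate 3 or any 1 of the MB180 arrays (adjusted p up to 0.147). The MB30 call was lost without 15 of the 30 arrays (adjusted p up to 0.175). Those were CA0 replicates 1 and 3, every CA5, CA30 and MB30 array, CA20 replicate 2, SAL60 replicates 1 and 3, and MB60 replicate 1. Without CA0 replicate 2 the MB60 change was called as well (adjusted p = 0.0385).

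LCP1-b was also above saline on average, with no call. SAL arrays had 81.9, 41.9 and 65.8 in SAL30, 43.2, 38.7 and 43.0 in SAL60, and 69.4, 55.9 and 25.3 in SAL180. The 60 min groups did not overlap, and the others did. The MB against SAL difference over the 3 times was 0.30 ± 0.15 (limma, adjusted p = 0.154). At 30 min that difference was 0.07 ± 0.26. Against CA0, LCP1-b was at 0.74 ± 0.26 in SAL30, 0.31 ± 0.26 in SAL60 and 0.45 ± 0.26 in SAL180. None of these changes against CA0 was called (limma, adjusted p = 0.58, 0.916 and 0.715). The other CA groups had 41.3, 35.9 and 39.3 in CA5, 57.0, 38.3 and 19.6 in CA20, and 42.8, 44.5 and 41.6 in CA30.

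The pair of brighter LCP1 probe sets had opposite signs in MB against SAL at each time, with neither called. Within each array the log2 value of LCP1-a minus that of LCP1-b averaged 0.19 ± 0.41 on MB arrays and 0.96 ± 0.74 on SAL arrays (SD, n = 9 each). The difference between the arms was -0.77. The log2 3'/5' ratio was 0.713 to 1.35 on MB arrays and 0.985 to 2.60 on SAL arrays. This difference was not checked with that ratio in a fit or without the 5 arrays named above. An exact permutation test over the 8000 relabellings within the 3 times gave a two-sided p of 0.00825. The test was run after the values of both probe sets, with their opposite signs, were known from these same arrays. Its p is therefore no independent support for a difference between the arms. Which probe set of the pair follows LCP1 RNA better was not tested, and no direction for LCP1 as a gene is given.

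**Figure D2:**
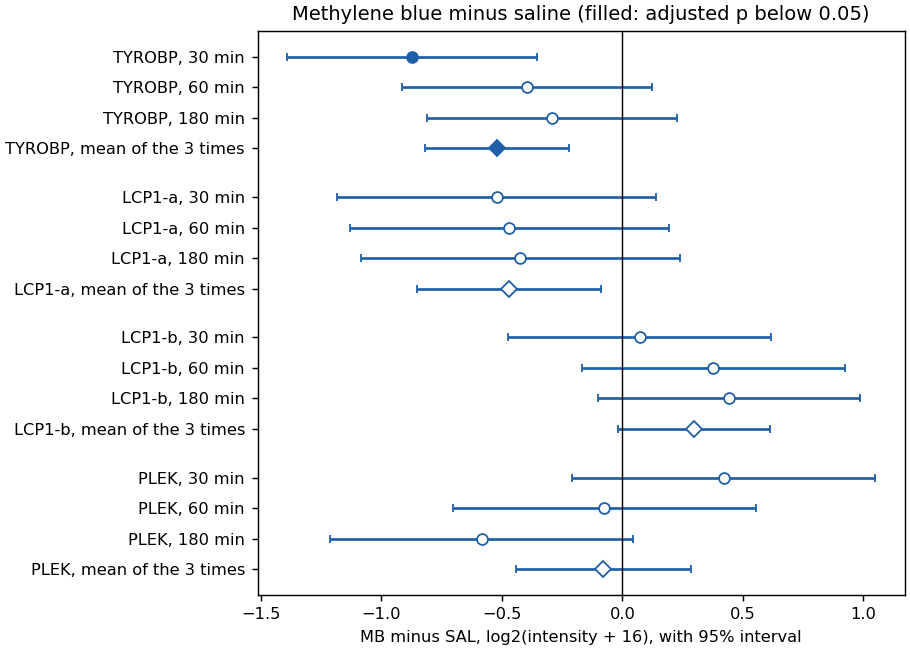
Difference of log2(intensity + 16), MB minus SAL (horizontal axis), with its 95% interval, for each of the 4 probe sets at 30, 60 and 180 min and over the 3 times; filled symbols have an adjusted p below 0.05. TYROBP was at -0.87 at 30 min and -0.52 over the 3 times, LCP1-a was below 0 at each time and LCP1-b above 0 at each time.

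The 3 dim LCP1 probe sets were tested without the filter. LCP1-c had 39.6, 24.2 and 44.4 in MB30, 33.2, 59.5 and 41.6 in MB60 and 54.9, 38.8 and 32.9 in MB180, against 5.7, 17.7 and 9.6 in CA0. All 9 MB arrays were above all 3 CA0 arrays. The rise against CA0 was 0.95 ± 0.28 in MB30, 1.17 ± 0.28 in MB60 and 1.12 ± 0.28 in MB180 (limma without the filter, adjusted p = 0.0340, 0.0113 and 0.0181). With the filter, 12.2%, 12.5% and 9.41% of all probe sets were called in these comparisons. LCP1-c was also at 0.64 ± 0.28 in SAL30, 0.79 ± 0.28 in SAL60 and 0.25 ± 0.28 in SAL180 against CA0, with no call. Over the 3 times LCP1-c rose by 0.52 ± 0.16 in MB against SAL (limma without the filter, adjusted p = 0.0253). With the filter, 25.2% of all probe sets were called there. LCP1-c was not checked with the 3'/5' ratio in the fit. LCP1-d averaged 15.4 on MB arrays, 13.2 on SAL arrays and 7.08 on CA arrays, and LCP1-e 9.92, 8.64 and 7.83, with no call for either in any comparison.

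**Figure D3:**
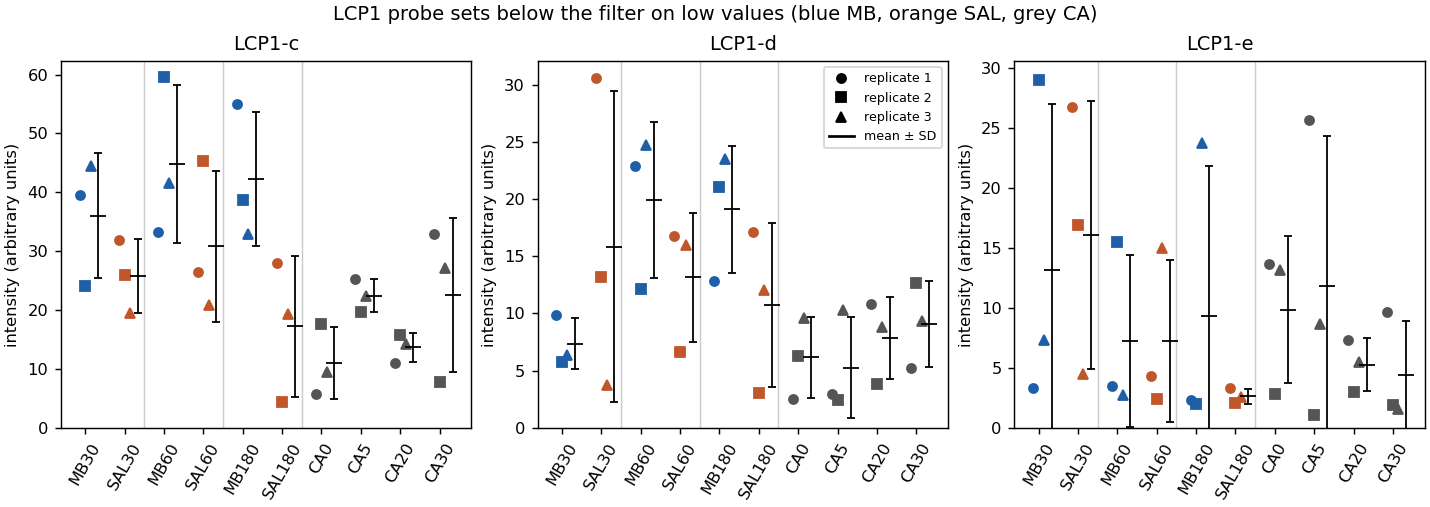
Intensity in arbitrary units (vertical axis, from 0) of the 3 LCP1 probe sets below the filter on each array, by group, with the mean ± SD of 3 arrays. LCP1-c lay between 24.2 and 59.5 on the 9 MB arrays and between 5.7 and 17.7 on the 3 CA0 arrays.

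PLEK (Ssc.17821.1.A1_at, mean 155) was highest late in the saline arm. It had 134.3, 64.6 and 119.1 in SAL30, 94.0, 219.4 and 155.2 in SAL60, and 325.4, 230.1 and 263.2 in SAL180. Every SAL180 array was above every SAL30 and SAL60 array. PLEK rose by 1.28 ± 0.31 in SAL180 against SAL30 (limma, adjusted p = 0.0473), a fold of 2.43. In that comparison 0.655% of probe sets were called, and 1 of the 4 members' probe sets.

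This call was near the threshold. It was kept without CA0 replicate 1 or 2, SAL30 replicate 1, SAL60 replicate 1 or 2, MB60 replicate 2, or MB180 replicate 1 or 2. It was lost without each of the other 22 arrays, with a change between 1.01 and 1.46 and an adjusted p of 0.0291 to 0.178 over the 30 refits. With the 3'/5' ratio in the fit it was 1.18 (adjusted p = 0.137), and without the 5 arrays named above it was 1.47 (adjusted p = 0.174).

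Against CA0, whose arrays had 199.1, 96.0 and 117.7, PLEK in SAL180 did not overlap. The change was 0.95 ± 0.31 (limma, adjusted p = 0.196), with 0.875% of probe sets called. At 30 and 60 min after saline PLEK overlapped CA0, with changes of -0.33 ± 0.31 and 0.15 ± 0.31. The mean of the 3 SAL groups against the mean of the 4 CA groups was 0.26 ± 0.17 (adjusted p = 0.635). In the other untreated arrests PLEK had 185.0, 131.2 and 161.9 in CA5, 115.9, 116.5 and 101.9 in CA20, and 138.1, 155.7 and 97.2 in CA30, all overlapping CA0.

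Under methylene blue PLEK had 172.3, 134.7 and 122.4 in MB30, 177.6, 97.8 and 155.9 in MB60, and 110.4, 285.3 and 167.3 in MB180. Only MB180 replicate 2 reached the range of the SAL180 arrays. The MB against SAL difference was 0.42 ± 0.31 at 30 min, -0.08 ± 0.31 at 60 min and -0.58 ± 0.31 at 180 min (limma, adjusted p = 0.445, 0.930 and 0.309). Its variation between times was not called (limma, moderated F test, adjusted p = 1, unadjusted 0.0867). In MB180 against MB30 the change was 0.28 ± 0.31 (adjusted p = 0.988), in a comparison with 0.286% of probe sets called and no member among them.

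Platelet genes were measured beside PLEK, which platelets make. Of 10 listed, 6 had a probe set and 5 passed the filter. The summed intensity of the 6 was 306.5 to 447.7 in SAL180 and 248.6 to 283.4 in SAL30. All 5 tested genes had changes above 0 in SAL180 against SAL30, with a median of 0.40 against -0.02 for all probe sets, and 0 were called by limma. The neutrophil list summed to 155.3 to 196.8 in SAL180 and 136.3 to 222.8 in SAL30, and the monocyte and macrophage list to 337.5 to 393.9 in SAL180 and 381.1 to 568.0 in SAL30. The part of any of these cells in the PLEK change was not tested.

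The 4 probe sets gave no other call. The test of any difference between the 10 groups, which called 15.3% of probe sets, gave adjusted p = 0.139 for TYROBP, 0.225 for LCP1-a, 0.115 for LCP1-b and 0.106 for PLEK (limma, moderated F test). In CA5 against CA0 0% of all probe sets were called, with 317 at an unadjusted p under 0.05. The shares were 0.0119% in CA20 against CA0, 0.0119% in CA30 against CA0 and 0.00595% for the trend over minutes of untreated arrest. They were 0.196% in SAL30 against CA0, 0.315% in SAL60 against CA0 and 1.5% for the SAL groups against the CA groups. In all of these, 0 of the 4 were called.

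The other microglia genes were compared next. In MB against SAL over the 3 times, 0 of the 9 tested rose and 2 fell, with a median of -0.24 against 0.02 for all probe sets. That share of genes called is no more than the 25.2% of all probe sets. FCER1G, an ITAM adaptor like TYROBP, fell by 0.56 ± 0.16 (limma, adjusted p = 0.0141). IRF8, a transcription factor of the microglial and monocyte lineage, fell by 0.66 ± 0.18 (adjusted p = 0.0104). AIF1 was at -0.31 ± 0.13 (adjusted p = 0.0776) and C1QC at -0.24 ± 0.15. P2RY12 was at 0.05 ± 0.19 and SPI1, the lineage factor PU.1, at 0.27 ± 0.14. The genes of this list did not share a sign. In MB30 against SAL30, where 4.09% of all probe sets were called, IRF8 alone of the list was called (-1.15 ± 0.32, limma, adjusted p = 0.0403). Without SAL30 replicate 1, 0 of the 9 were called at 30 min.

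SAL30 replicate 1 was high for this list too. The summed intensity of the 11 genes was 3331 to 3839 in MB30, and in SAL30 it was 8206 on replicate 1, with 3227 and 4623 on the other arrays. Without that array the median of the list was -0.08, AIF1 was at -0.20 and C1QC at -0.09. FCER1G was then at -0.42 ± 0.14 (limma, adjusted p = 0.0329) and IRF8 at -0.52 ± 0.17 (adjusted p = 0.0264), and both were still called. With the 3'/5' ratio in the fit neither was called, at -0.50 for FCER1G (adjusted p = 0.122) and -0.44 for IRF8 (adjusted p = 0.205). Without the 5 arrays neither was called either, at -0.42 (adjusted p = 0.0775) and -0.47 (adjusted p = 0.0906).

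In saline at 180 min the microglia list lay below CA0. All 9 genes had changes below 0, with a median of -0.36, and 0 were called by limma. P2RY12 was at -1.14 ± 0.33 (adjusted p = 0.124). TYROBP was at -0.06 ± 0.25 in the same comparison and PLEK at 0.95 ± 0.31.

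Genes near TYROBP in its pathway did not move as a group. Of 17 DAP12 and ITAM signalling genes listed, 6 were tested, and 1 rose and 1 fell in MB against SAL over the 3 times, where 25.2% of all probe sets were called. The median was -0.20, and -0.11 without SAL30 replicate 1. The gene that fell was FCER1G. HCST, the adaptor DAP10 that sits beside TYROBP in receptor complexes, rose by 0.40 ± 0.14 (limma, adjusted p = 0.0316). Its call was lost without any 1 of SAL30, SAL60 or SAL180 replicate 1, MB30 replicate 2 or 3, MB60 replicate 3, or MB180 replicate 2 or 3 (adjusted p up to 0.0750). It was lost with the 3'/5' ratio in the fit as well (0.32, adjusted p = 0.236). VAV1, a signalling protein of blood cells, was at -0.43 ± 0.17 (adjusted p = 0.0566) and LYN, a kinase that phosphorylates ITAMs, at -0.28 ± 0.13. Without SAL30 replicate 1 they were at -0.26 and -0.16. TREM2 and SYK had no probe set with their symbol alone in the annotation.

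Leukocyte actin genes split in sign. Of 14 listed, 6 were tested, and 2 rose and 2 fell in MB against SAL over the 3 times, where 25.2% of all probe sets were called. The median was -0.20, but it was -0.04 without SAL30 replicate 1, -0.06 with the 3'/5' ratio in the fit and 0.02 without the 5 arrays. RAC2, a GTPase of blood cells, rose by 0.49 ± 0.10 (limma, adjusted p = 0.00107), and WAS, which activates the Arp2/3 complex, rose by 0.50 ± 0.15 (adjusted p = 0.0150). GMFG fell by 0.45 ± 0.14 (adjusted p = 0.0169) and CORO1A, coronin, by 0.23 ± 0.08 (adjusted p = 0.0408). RAC2 kept its call with the 3'/5' ratio in the fit (0.38, adjusted p = 0.0385), and the other 3 did not. Without the 5 arrays CORO1A and GMFG lost theirs (adjusted p = 0.0917 and 0.139). ARPC1B, an Arp2/3 subunit, was at -0.17 and ITGB2 at -0.29, with no call. Without SAL30 replicate 1 they were at 0.04 and -0.13. The CORO1A call was lost without any 1 of SAL30 replicate 2 or 3, SAL60 replicate 1 or 2, SAL180 replicate 2, MB30 replicate 1 or 3, MB60 replicate 2, or MB180 replicate 3 (adjusted p up to 0.0936).

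Of 7 genes listed for pleckstrin and protein kinase C, 3 were tested and 0 were called in MB against SAL over the 3 times. PRKCA was at 0.03, with no call. PRKCB was at -0.45 ± 0.17 (limma, adjusted p = 0.0611) and PRKCD at 0.39 ± 0.15 (adjusted p = 0.0592). Without SAL30 replicate 1 both passed, at -0.59 and 0.52 (adjusted p = 0.00629 and 0.00804).

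**Figure D4:**
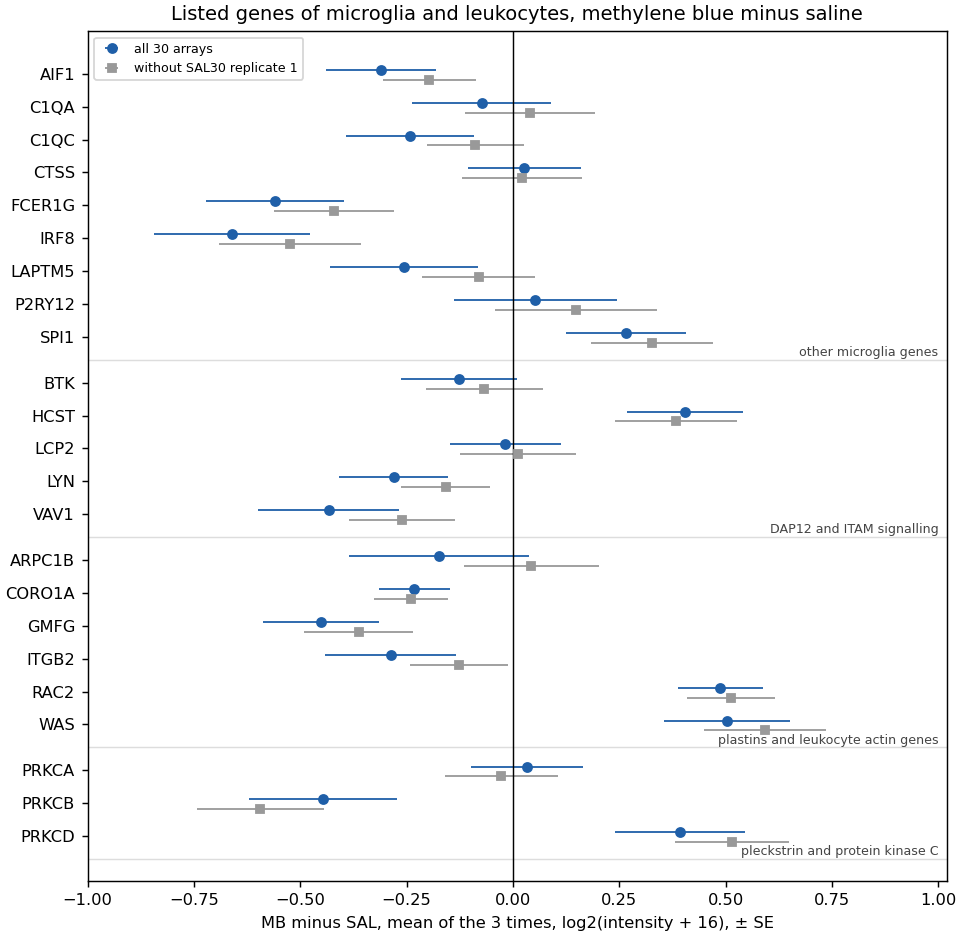
Difference of log2(intensity + 16), MB minus SAL over the 3 times (horizontal axis) ± SE, for the tested genes of the 4 lists closest to the members, with all 30 arrays and without SAL30 replicate 1; FCER1G is drawn once. FCER1G and IRF8 stayed below 0 without that array, at -0.42 and -0.52, and RAC2 was above 0 either way.

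In MB against SAL over the 3 times 3 of 5 platelet genes rose (GP9, ITGA2B and THBS1), as did 1 of 8 endothelial genes (CDH5), 1 of 5 neuron genes (SYT1), 1 of 5 astrocyte genes (SLC1A3) and 1 of 3 meningeal fibroblast genes (DCN). Of all probe sets 25.2% were called there, and the endothelial, neuron and astrocyte shares were no more than that. None of these genes kept its call with the 3'/5' ratio in the fit. Leaving out 1 array ended the GP9 call for 2 arrays (MB60 replicate 2 and MB180 replicate 3), that of CDH5 for 8, THBS1 for 9, ITGA2B for 10 and DCN for 20, and those of SYT1 and SLC1A3 for none. Without the 5 arrays only GP9 of these genes was called. The test of any difference between the 10 groups called 15.3% of all probe sets. Of the endothelial genes PECAM1 (limma, moderated F test, adjusted p = 0.00351), CDH5 (adjusted p = 0.0311) and CLDN5 (adjusted p = 0.0470) passed it. So did RAC2 (limma, moderated F test, adjusted p = 0.00522), THBS1 (0.00967), GP9 (0.0177), WAS (0.0414) and IRF8 (0.0433) from other lists. The CLDN5 call was lost in most refits that left out 1 array (adjusted p up to 0.117). PECAM1 also rose by 0.68 ± 0.18 in MB180 against CA0 (adjusted p = 0.0162), and not without CA0 replicate 1 or 2 or MB180 replicate 3 (adjusted p up to 0.0834). CDH5 rose by 0.76 ± 0.18 in MB180 against CA0 (limma, adjusted p = 0.011). None of the 2 neutrophil, 5 monocyte and macrophage, 1 T and NK cell, 2 red blood cell and 4 oligodendrocyte genes tested was called by limma, and no B cell gene was tested. The part of cell makeup in the TYROBP difference was not tested.

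Over the 30 arrays TYROBP and LCP1-a varied together. Pearson's r was 0.65, and 0.75 for deviations from the group means. TYROBP with PLEK gave 0.00, LCP1-a with PLEK 0.39, and LCP1-a with LCP1-b -0.18, which was -0.32 without SAL30 replicate 1. LCP1-b and LCP1-c had r = 0.50, and 0.03 for deviations from group means. These are descriptions over arrays that share tissue, scaling and labelling.

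The 5 tested genes most like TYROBP by this r were C3 of complement (0.83), FCGRT, an IgG receptor (0.79), VAV1 (0.76), LONRF3 (0.75) and ITGB2, the leukocyte integrin chain CD18 (0.75). Without SAL30 replicate 1 these were 0.66, 0.57, 0.54, 0.62 and 0.47. For LCP1-a they were SERPINB1 (0.78), TREX1 (0.72), LITAF (0.72), LONRF3 (0.72) and VAV1 (0.71), with 0.74, 0.72, 0.72, 0.67 and 0.69 without that array. For PLEK they were WDR74 (0.69), HSD17B7 (0.67), NUDT18 (0.62), NQO1 (0.62) and LOC100518827 (0.62). LONRF3 and VAV1 stood in both of the first lists.

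**Figure D5:**
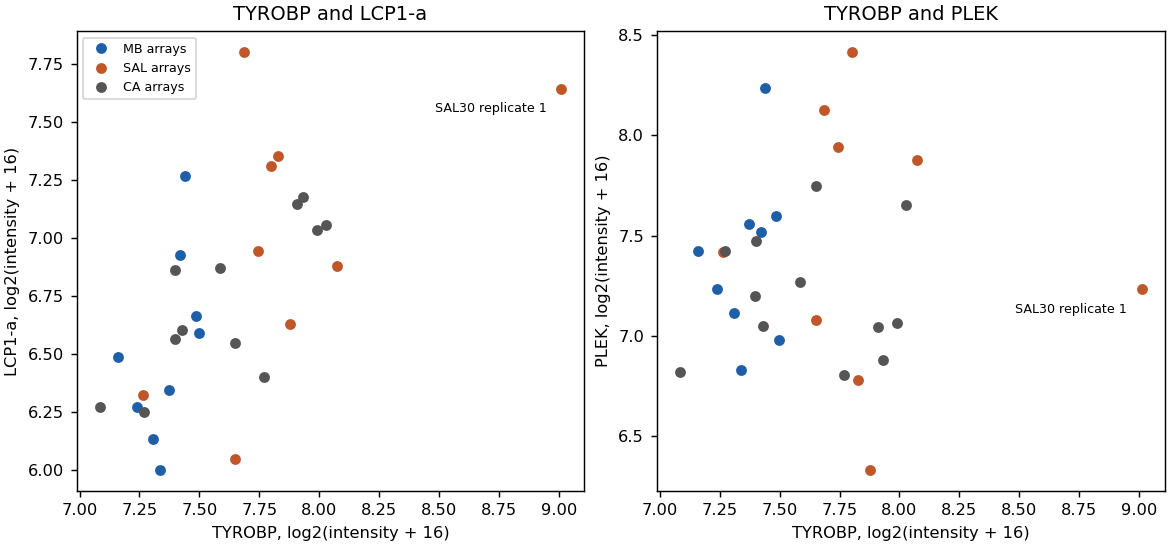
Log2(intensity + 16) of LCP1-a (left, vertical axis) and of PLEK (right, vertical axis) against that of TYROBP (horizontal axis) on the 30 arrays, coloured by MB, SAL and CA. LCP1-a rose with TYROBP (r = 0.65) and PLEK did not (r = 0.00), and SAL30 replicate 1 is the point far to the right.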

How the data were processed

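RNA of pig cerebral cortex was measured on 30 Affymetrix porcine arrays. The deposited values are linear intensity per probe set, made by the authors with GCOS per the submitters' processing notes (version not given in the sources used here). They had been scaled to a common trimmed mean, as the values show, which ties a probe set's level to the rest of its array. The authors gave no log2 values in the deposited table: log2(intensity + 16) was computed here. Of 24123 probe sets, 124 controls were left out, and the dimmest, up to the 30th percentile of mean log2, were dropped, leaving 16799.

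Limma 3.58.1 in R 4.3.3 fitted 10 group means (20 residual degrees of freedom, intensity trend), with Benjamini-Hochberg adjustment at 0.05 per comparison. It was checked on simulated data. Groups come from the labels. No batch or scan date is given. The members and gene lists were chosen with earlier results of these data known. Named genes are all members, list genes that passed a test, and the brightest 3 of each of the 4 lists closest to the members. CTSS, SPI1, S100A8, S100A9, PGLYRP1, MMP9, CD79B, PPBP, ITGB3 and SELP were added after their values were seen. A gene with several probe sets is taken at its brightest one. Alternatives were 2 pseudocounts, no filter and a 50th percentile filter, quantile normalization, median centring, fewer arrays in the fit, no intensity trend, array weights, a replicate block, joint adjustment and each array left out. The 3'/5' ratio as a covariate and leaving out 5 arrays were chosen after seeing the data. Genomic positions and sequences were not used here.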

Additional observations from a re-analysis of the deposited data

Results flagged for a closer look

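LCP1 probe sets c and d, which were below the filter on low values and so outside the main test, stood above their level in CA0 in some groups. The mean intensity of LCP1-c was 36.06 in MB30, 44.76 in MB60, 42.2 in MB180, 25.77 in SAL30, 30.85 in SAL60 and 22.47 in CA5, against 10.97 in CA0. Every array of these 6 groups was above the highest CA0 array (17.7). LCP1-c in CA30 (mean 22.60), SAL180 (17.25) and CA20 (13.69) overlapped CA0. How many of all probe sets separate from CA0 in this way was not counted. LCP1-d averaged 19.88 in MB60 and 19.11 in MB180, against 6.16 in CA0, and all arrays of both groups were above the highest CA0 array (9.64). Without the filter LCP1-c was called by limma in the 3 MB groups against CA0, and LCP1-d was not (adjusted p = 0.0900 in MB60 and 0.114 in MB180). With the filter, 12.2%, 12.5% and 9.41% of all probe sets were called in MB30, MB60 and MB180 against CA0.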

How the results depend on the processing

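The numbers of members' probe sets called moved as follows, from 1 each in MB against SAL over the 3 times, MB30 against SAL30, SAL180 against SAL30, MB30 against CA0 and MB180 against CA0, and 0 in MB60 against CA0 and in the test of any difference. MB30 against SAL30 dropped to 0 with a pseudocount of 1, no filter, only the groups compared, no intensity trend, array weights, joint adjustment, the 3'/5' covariate and without the 5 arrays. SAL180 against SAL30 dropped to 0 with no filter, quantile normalization, only the groups compared, no intensity trend, the covariate and without the 5 arrays. MB30 and MB180 against CA0 dropped to 0 with the 50th percentile filter, which LCP1-b did not pass, quantile normalization, median centring, only the groups compared, joint adjustment and the covariate. With no filter MB180 against CA0 gave 2, MB60 against CA0 1 and the test of any difference 1, from LCP1-c. MB30 against CA0 kept 1 with no filter, but LCP1-b lost its call (adjusted p = 0.0532) and LCP1-c gained one (adjusted p = 0.0340). MB60 against CA0 gave 1 also without the 5 arrays, and the test of any difference gave 1 with array weights, for PLEK. MB against SAL over the 3 times gave 2 with no filter, quantile normalization and median centring, and 0 with joint adjustment, the covariate and without the 5 arrays. The causes were not tested. Leaving out 1 array gave 1 to 2 for MB against SAL over the 3 times and 0 to 1 for MB30 against SAL30, SAL180 against SAL30, the 3 MB groups against CA0 and the test of any difference, which gave TYROBP without SAL30 replicate 3. No called change turned its sign under any of these settings.

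Same-numbered arrays did not all correlate above 0.1 in 10 of 11 pairs of groups. Of 33 correlations of same-numbered arrays' deviations, 6 were above 0.1. All 3 were above it in CA30 with CA0 (0.17, 0.12 and 0.13), where TYROBP with the replicate block was at -0.49 ± 0.23 (limma, adjusted p = 0.984), still not called. In CA20 with CA0 the same-numbered correlations were 0.02, 0.11 and 0.06, against a mean of -0.03 for other numbers. Each CA20 array matched the CA0 array of its own number best, so pairing there is not excluded. With the replicate block the count for SAL180 against SAL30 was 0 (PLEK, adjusted p = 0.0576), and no other count of members moved.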

Other observations

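Some platelet genes were higher in methylene blue cortex than in CA0. Of 5 tested, 3 rose in MB30 (GP9, ITGA2B and THBS1), 2 in MB60 (GP9 and THBS1) and 3 in MB180 (the same as in MB30), where 12.2%, 12.5% and 9.41% of all probe sets were called. ITGB3 was at -0.61, -0.14 and 0.67 and SELP at -0.11, -0.25 and 0.19 in MB30, MB60 and MB180 against CA0, with no call. THBS1, thrombospondin, which endothelium and glia also make, rose by 1.76 ± 0.38 in MB60 against CA0 (limma, adjusted p = 0.00513), and GP9, a platelet adhesion receptor chain, rose by 0.81 ± 0.19 (adjusted p = 0.00762). The THBS1 call was lost with the 3'/5' ratio in the fit (adjusted p = 0.0624) and the GP9 call with only the compared groups in it (adjusted p = 0.0550).

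The summed intensity of 7 neutrophil genes was 289.2 to 384.8 in MB180, against 155.3 to 196.8 in SAL180 and 130.5 to 165.1 in CA0. S100A8 and S100A9 averaged 61.6 and 78.7 in MB180, against 19.4 and 12.8 in CA0. Both were below the filter and so outside the main test. Of the 7, 2 passed the filter and neither was called in MB180 against CA0. They were PGLYRP1, at -0.06 ± 0.22, and MMP9, at 0.31 ± 0.27.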
